A study of Mus musculus with 10 samples.

Results

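The TAM receptors Tyro3, Axl and Mertk and their ligands Gas6 and Pros1 were followed in dorsal root ganglia, which hold the cell bodies of sensory nerves, in C57BL/6 mice. These 5 genes were taken by symbol from 40481 genes in the deposited count table, 1 row each, and all 5 had enough reads to be among the 18401 genes tested. They were chosen with their values after oxaliplatin and after vehicle already known, so differences between these groups are described for them and not tested. RNA sequencing was done on 5 libraries from mice given oxaliplatin at 10 mg/kg, a platinum drug against cancer that harms sensory nerves, and on 5 libraries from mice given vehicle, with ganglia taken after 8 weeks. The sources used here give no animal age, sex or dosing schedule, and do not say that each library came from a different animal, so a p-value sets a difference against the spread between libraries, which may be technical. Each library held 52963470 to 60984426 counted reads. Oxaliplatin replicate 1 stood apart from its group in fat cell and muscle transcripts, and vehicle replicate 5 from its group in Lgals3. Results are also given without them where that changes a call. In the count table they are Mertk (ENSMUSG00000014361), Axl (ENSMUSG00000002602), Tyro3 (ENSMUSG00000027298), Gas6 (ENSMUSG00000031451) and Pros1 (ENSMUSG00000022912).

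TAM receptors are tyrosine kinases at the cell surface that sense dying cells. Their ligands, the secreted proteins Gas6 and protein S (the product of Pros1), carry a vitamin K-dependent Gla domain that binds phosphatidylserine, a lipid that dying cells expose, and so bridge the dying cell to the receptor. Gas6 binds each of the receptors, with its highest affinity for Axl, while protein S binds Mertk and Tyro3. Mertk and Axl act in the clearance of dead cells by macrophages and other phagocytes and restrain inflammatory signalling in them, and Mertk also serves glial cells that engulf debris. Tyro3 is the member most linked to neurons.

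Promoter sequences were taken from RefSeq (GRCm38.p6), where each of the 5 genes matched 1 entry. Bases after the start found in a GENCODE M21 transcript of the gene were 50 for Tyro3 and 50 for Pros1. They were only 9 for Mertk, 6 for Gas6 and 22 for Axl, so the starts of these genes are less sure. The 250 bases before the start are shown for Mertk and Gas6, which had the largest differences upward, and for Tyro3, the member with a difference downward. Capitals mark the GC box, GGGCGG on either strand, a general motif bound by Sp1-type factors.
Mertk, chr2:128698665-128698914, plus strand: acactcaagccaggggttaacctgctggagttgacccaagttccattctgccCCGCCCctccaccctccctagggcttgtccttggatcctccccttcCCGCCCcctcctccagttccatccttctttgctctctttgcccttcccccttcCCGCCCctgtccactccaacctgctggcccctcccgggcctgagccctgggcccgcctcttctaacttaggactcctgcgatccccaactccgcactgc
Gas6, chr8:13494536-13494785, minus strand: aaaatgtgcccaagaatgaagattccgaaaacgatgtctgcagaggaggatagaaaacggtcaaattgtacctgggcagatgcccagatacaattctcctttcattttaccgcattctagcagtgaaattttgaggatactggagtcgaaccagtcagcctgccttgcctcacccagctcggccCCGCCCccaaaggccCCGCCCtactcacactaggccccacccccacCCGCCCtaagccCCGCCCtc
Tyro3, chr2:119799264-119799513, plus strand: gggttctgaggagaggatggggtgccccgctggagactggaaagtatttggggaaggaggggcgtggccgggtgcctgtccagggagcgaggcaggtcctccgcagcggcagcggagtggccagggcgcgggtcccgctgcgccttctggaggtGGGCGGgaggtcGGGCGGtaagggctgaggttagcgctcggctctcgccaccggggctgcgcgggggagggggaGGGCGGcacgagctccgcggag

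The GC box was found 3 times before the start of Mertk, 4 times before Gas6, 3 times before Tyro3, 5 times before Pros1 and 1 time before Axl. Of 32851 RefSeq promoter windows of the same length, 32.7% held it at least 1 time. The G and C content was 63.6% before Mertk, 60.0% before Axl, 73.2% before Tyro3, 54.8% before Gas6 and 64.4% before Pros1, against a median of 52.4% over all windows. Other motifs were searched on both strands, some of them overlapping one another. The glucocorticoid receptor core AGAACA, the nuclear receptor core AGGTCA and the AP-1 site TGANTCA had no match in any of the 5 windows. They were in 16.1% (AGAACA), 14.02% (AGGTCA) and 6.75% (TGANTCA) of all windows. The full glucocorticoid response element and the LXR-type direct repeat, which pair these cores around a spacer, also had no match, and were in 0.00913% and 0.0152% of all windows. The PU.1 core GAGGAA, found in 23.2% of all windows, had 1 match, before Axl.

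Mertk, the receptor with the clearest difference, stood higher in every oxaliplatin library than in any vehicle library. Its level was 20.7, 18.1, 19.7, 18.4 and 18.5 CPM (read counts scaled to library size, with TMM factors) in oxaliplatin replicates 1 to 5, against 8.19, 8.20, 12.4, 11.3 and 11.7 CPM in vehicle replicates 1 to 5. The oxaliplatin libraries lay close together, and the vehicle libraries split into replicates 1 and 2 at the bottom and the other 3 above them. Behind these levels were 1058 to 1151 reads per oxaliplatin library and 438 to 691 per vehicle library. The mean was 19.1 ± 1.11 CPM after oxaliplatin and 10.4 ± 2.005 CPM after vehicle (SD, n = 5 each), a log2 fold change of 0.88 ± 0.12 (SE) or 1.84-fold. The coefficient of variation between libraries was 5.81% after oxaliplatin and 19.4% after vehicle.

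Axl, the receptor of highest affinity for Gas6, was also above every vehicle library in all oxaliplatin libraries, by a narrow margin. Its level was 26.1, 29.2, 25.5, 25.2 and 28.3 CPM in oxaliplatin replicates 1 to 5, against 21.6, 24.0, 22.2, 25.1 and 24.5 CPM in vehicle replicates 1 to 5. The lowest oxaliplatin library, at 25.2 CPM, and the highest vehicle library, at 25.1 CPM, were nearly equal. The difference on the log2 scale was 0.19 ± 0.08 (SE), or 1.14-fold, between means of 26.9 ± 1.79 CPM after oxaliplatin and 23.5 ± 1.53 CPM after vehicle (SD, n = 5 each).

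Tyro3, the neuronal member of the family, was the only member with a lower mean after oxaliplatin, and its groups overlapped. Its level was 10.7, 11.6, 9.39, 9.14 and 9.48 CPM in oxaliplatin replicates 1 to 5, against 15.9, 11.4, 12.2, 10.7 and 11.4 CPM in vehicle replicates 1 to 5. Of the oxaliplatin libraries 3 lay below every vehicle library, and vehicle replicate 1 stood far above the others of its group. Its log2 ratio of oxaliplatin over vehicle was -0.29 ± 0.12 (SE), a fold of 0.817, with means of 10.1 ± 1.03 CPM after oxaliplatin and 12.3 ± 2.10 CPM after vehicle (SD, n = 5 each). Without vehicle replicate 1 it was -0.18, a move of over 1.5 times.

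Gas6, the ligand of all TAM receptors, was higher in every oxaliplatin library than in any vehicle library. Its level was 51.9, 47.9, 48.1, 50.2 and 52.0 CPM in oxaliplatin replicates 1 to 5, against 37.3, 36.5, 44.2, 38.5 and 36.4 CPM in vehicle replicates 1 to 5. Vehicle replicate 3 came nearest to the oxaliplatin libraries. The mean was 50.03 ± 1.99 CPM after oxaliplatin and 38.6 ± 3.24 CPM after vehicle (SD, n = 5 each), a log2 fold change of 0.38 ± 0.07 (SE) or 1.30-fold. Exons of Gas6 share 34 bases with Tmem255b on the opposite strand in GENCODE M21, and that gene had 44 to 158 reads per library against 1948 to 3117 for Gas6. No source used here says whether counting used strand. No other member shares exon bases with another annotated gene.

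Pros1, which codes for the anticoagulant and TAM ligand protein S, was above every vehicle library in 4 of 5 oxaliplatin libraries. Its level was 14.6, 14.9, 18.7, 15.02 and 15.9 CPM in oxaliplatin replicates 1 to 5, against 12.4, 14.6, 12.1, 11.97 and 12.9 CPM in vehicle replicates 1 to 5. Replicate 3 was the highest oxaliplatin library, and vehicle replicate 2 reached the level of oxaliplatin replicate 1. This gave a log2 fold change of 0.31 ± 0.10 (SE), a fold of 1.24, and means of 15.8 ± 1.69 CPM after oxaliplatin and 12.8 ± 1.08 CPM after vehicle (SD, n = 5 each).

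**Figure D1:**
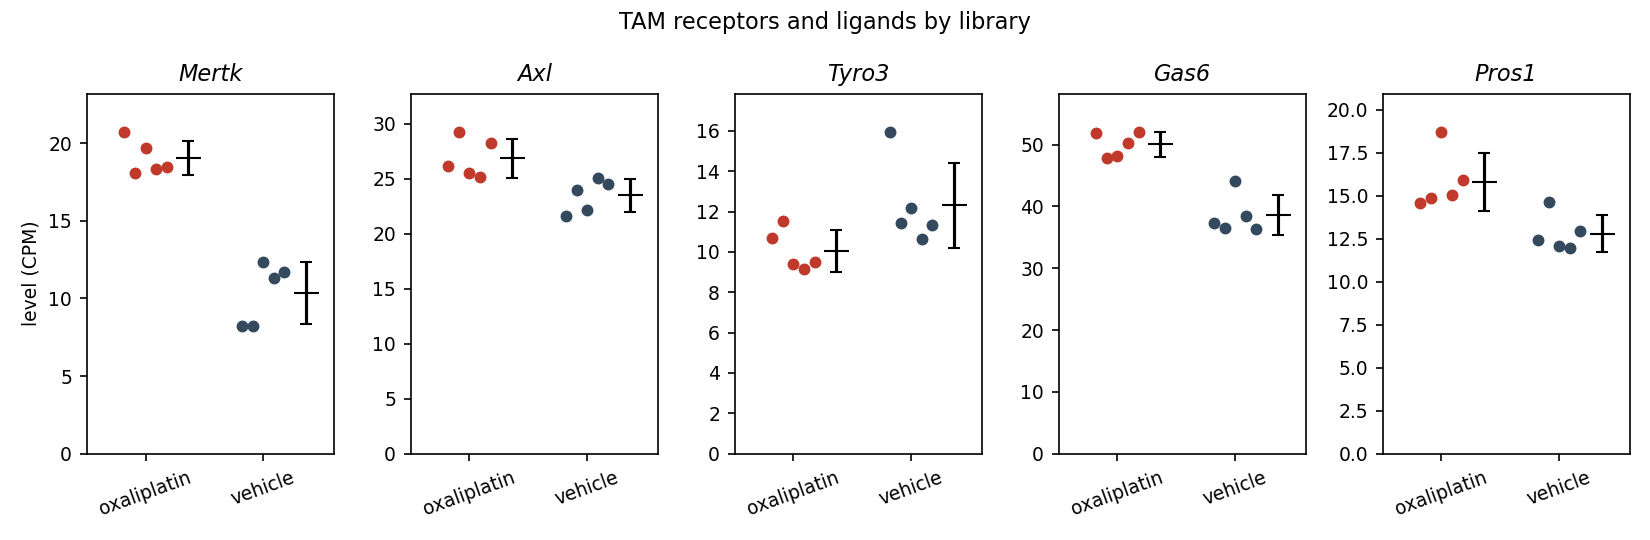
Level in CPM (vertical axis, from 0) of each gene in the 5 oxaliplatin and the 5 vehicle libraries, 1 point per library in replicate order, with the mean ± SD as a bar beside them. Mertk, Axl and Gas6 show no overlap between the groups, with Mertk at 18.1 to 20.7 CPM after oxaliplatin and 8.19 to 12.4 CPM after vehicle.

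In the fit over all genes, Mertk and Gas6 passed a Benjamini-Hochberg adjusted p of 0.05 (edgeR quasi-likelihood test), 2 of the 5 members, both on the higher side. The same fit called 2.04% of all genes tested, 1.27% higher and 0.772% lower. The groups did not overlap for 3 of 5 members, all on the higher side, and for 4.02% of all genes, 2.25% on the higher and 1.77% on the lower side. Since the members were picked with this contrast known, nothing is read from these counts. The log2 fold change of Mertk lay above that of 97.8% of all genes tested, those of Gas6, Pros1 and Axl above 89.5%, 86.6% and 78.8%, and that of Tyro3 above 9.12%. When 1 library was left out, the log2 fold change ranged over 0.81 to 0.96 for Mertk, 0.36 to 0.43 for Gas6, 0.24 to 0.36 for Pros1, 0.16 to 0.22 for Axl and -0.35 to -0.18 for Tyro3. Without oxaliplatin replicate 1 and vehicle replicate 5 together, Mertk was at 0.90 and Gas6 at 0.34, where Gas6 no longer passed. In whole ganglia, a change in the number of cells that make a transcript and a change of that transcript per cell cannot be told apart.

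**Figure D2:**
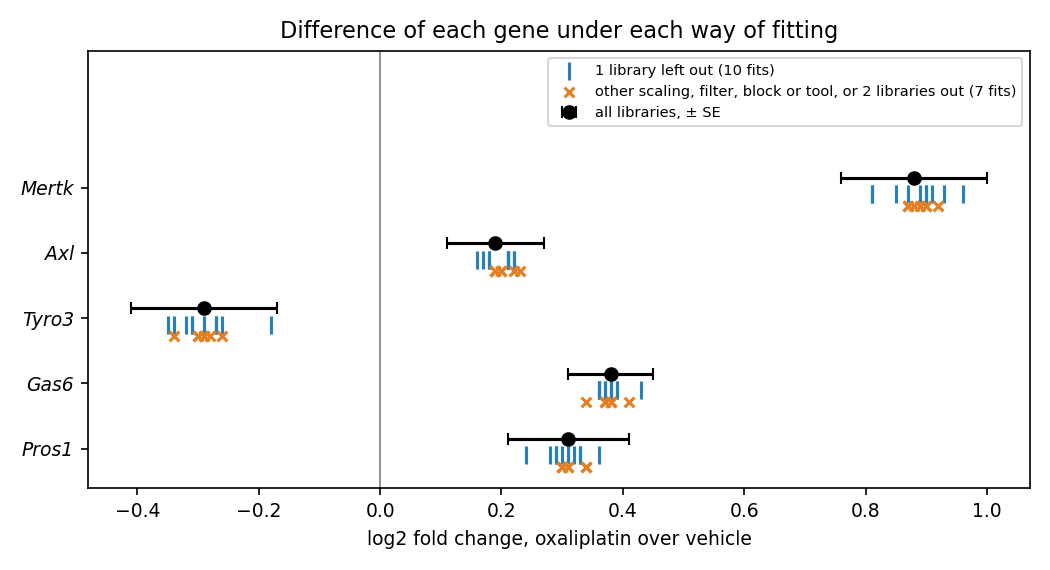
Log2 fold change of oxaliplatin over vehicle (horizontal axis) for each gene, with all libraries (point ± SE), in 10 fits that leave out 1 library (ticks) and in 7 other fits (crosses). Mertk ranges over 0.81 to 0.96 when 1 library is left out, and every value of Tyro3 lies below 0.

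To set the genes beside each other, CPM was divided by the exon length of each gene in GENCODE M21, which was 4336 bases for Mertk, 5033 for Axl, 6198 for Tyro3, 2548 for Gas6 and 4088 for Pros1. On this per-length scale Gas6 was the highest in both groups, at 19.6 ± 0.781 CPM per kb after oxaliplatin and 15.1 ± 1.27 CPM per kb after vehicle (SD, n = 5 each). After oxaliplatin the order of levels went on with Axl (5.34 ± 0.356 CPM per kb), Mertk (4.40 ± 0.256), Pros1 (3.87 ± 0.413) and Tyro3 (1.62 ± 0.167). After vehicle it went on with Axl (4.66 ± 0.303 CPM per kb), Pros1 (3.13 ± 0.264), Mertk (2.39 ± 0.462) and Tyro3 (1.98 ± 0.339). Mertk and Pros1 thus traded places between the groups. After oxaliplatin their ranges overlapped, with Mertk at 4.17 to 4.78 CPM per kb and Pros1 at 3.57 to 4.58. After vehicle Mertk, at 1.89 to 2.85 CPM per kb, lay below Pros1, at 2.93 to 3.58, in every library. Mertk and Tyro3 overlapped after vehicle, where Tyro3 ranged over 1.72 to 2.57 CPM per kb, and were apart after oxaliplatin, where Tyro3 ranged over 1.48 to 1.86.

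The makeup of the receptor transcripts differed accordingly. Mertk made up 38.8% ± 2.44 of the per-length receptor sum after oxaliplatin (35.2 to 40.9% by library) and 26.3% ± 4.15 after vehicle (21.6 to 30.9%; SD, n = 5 each). Tyro3 made up 14.3% ± 0.976 after oxaliplatin (13.4 to 15.7%) and 22.1% ± 4.31 after vehicle (18.5 to 29.4%), again without overlap between the groups. Shares of the same sum are tied, so a larger Mertk part makes the others smaller. The level of Tyro3 itself overlapped between the groups, at 1.48 to 1.86 CPM per kb after oxaliplatin and 1.72 to 2.57 after vehicle. Axl was the largest part in both, at 47.0% ± 2.13 after oxaliplatin and 51.6% ± 3.38 after vehicle. The receptor sum itself was 10.7 to 11.8 CPM per kb after oxaliplatin and 8.50 to 9.40 CPM per kb after vehicle. Between the ligands the split was nearly the same in both groups, with Gas6 at 83.5% ± 1.76 of the ligand sum after oxaliplatin and 82.8% ± 2.03 after vehicle. These shares come from the contrast by which the members were chosen and are given as a description.

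**Figure D3:**
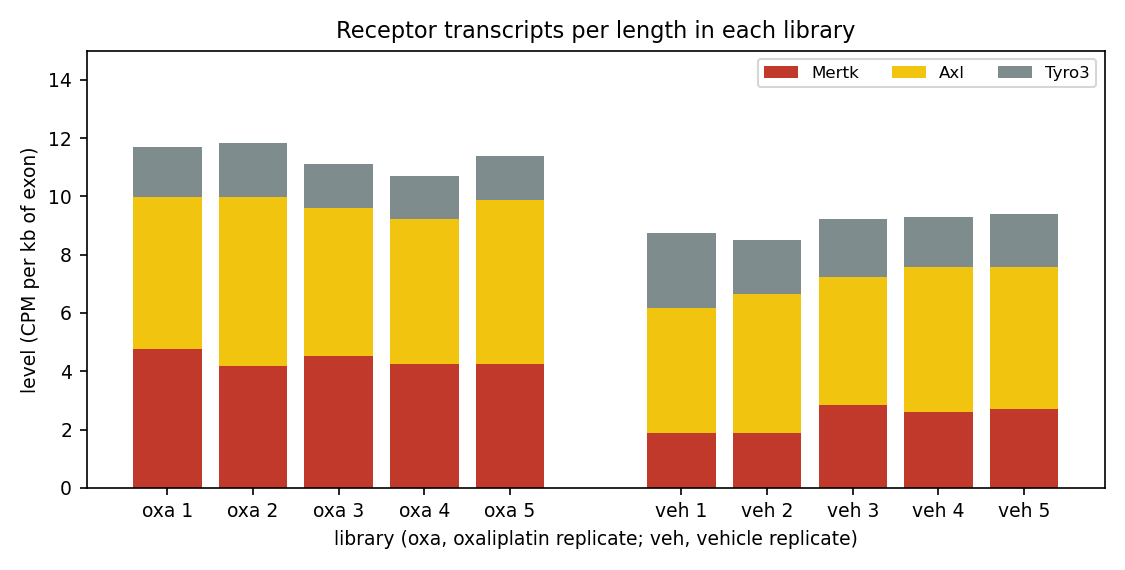
Per-length level (CPM per kb of exon, stacked from 0) of the receptors Mertk, Axl and Tyro3 in each of the 5 oxaliplatin and 5 vehicle libraries. The whole bar reaches 10.7 to 11.8 CPM per kb after oxaliplatin and 8.50 to 9.40 after vehicle, and the Mertk part is larger in every oxaliplatin library than in any vehicle library.

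Variation between libraries of the same group, which the choice of members did not use, was examined after the group means were removed. Over the 10 libraries 0 of the 10 pairs of members had a permutation p below 0.05. Mertk with Gas6 had a positive r (Pearson r = 0.53, exact permutation p = 0.219; Spearman rho = 0.31, exact permutation p = 0.459), at r = 0.44 without the 2 libraries of most extreme Mertk and 0.72 without oxaliplatin replicate 1 and vehicle replicate 5. The ligands had a negative r that did not pass (Gas6 with Pros1, Pearson r = -0.46, exact permutation p = 0.17; Spearman rho = -0.48, exact permutation p = 0.163), at r = -0.59 without the 2 libraries of most extreme Gas6. Counting each member against 9 cell type marker lists too, 55 relations were computed and 0 passed a Benjamini-Hochberg adjusted p of 0.05 (two-sided exact permutation test over the orders of libraries inside the groups), with 1 below 0.05 before adjustment by Pearson's r and 5 by Spearman's rho. The one below it by both was Axl with markers of myelinating Schwann cells (Pearson r = 0.68, exact permutation p = 0.0468, adjusted p = 0.694; Spearman rho = 0.70, exact permutation p = 0.0445, adjusted p = 0.49), at r = 0.56 without the 2 libraries of most extreme Axl. The other 4 by rho were Gas6 with satellite glia markers (rho = -0.71, exact permutation p = 0.0153; r = -0.53, p = 0.0792) and with fibroblast markers (rho = -0.71, p = 0.0259; r = -0.49, p = 0.138), and Pros1 with macrophage markers (rho = 0.67, p = 0.038; r = 0.51, p = 0.117) and with sensory neuron markers (rho = -0.68, p = 0.0422; r = -0.59, p = 0.124). Their adjusted p was 0.49 by rho and 0.694 by r in each case. Without the 2 libraries of most extreme Gas6, its r was -0.57 with satellite glia and -0.90 with fibroblast markers. Without those of most extreme Pros1, its r was 0.61 with macrophage and -0.51 with sensory neuron markers. Mertk had r = 0.22 with the mean of the macrophage markers (exact permutation p = 0.64; Spearman rho = 0.12, exact permutation p = 0.767; r = 0.11 without 2 libraries) and r = 0.19 with that of the satellite glia markers (exact permutation p = 0.517; Spearman rho = -0.12, exact permutation p = 0.683; r = -0.08 without 2 libraries).

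**Figure D4:**
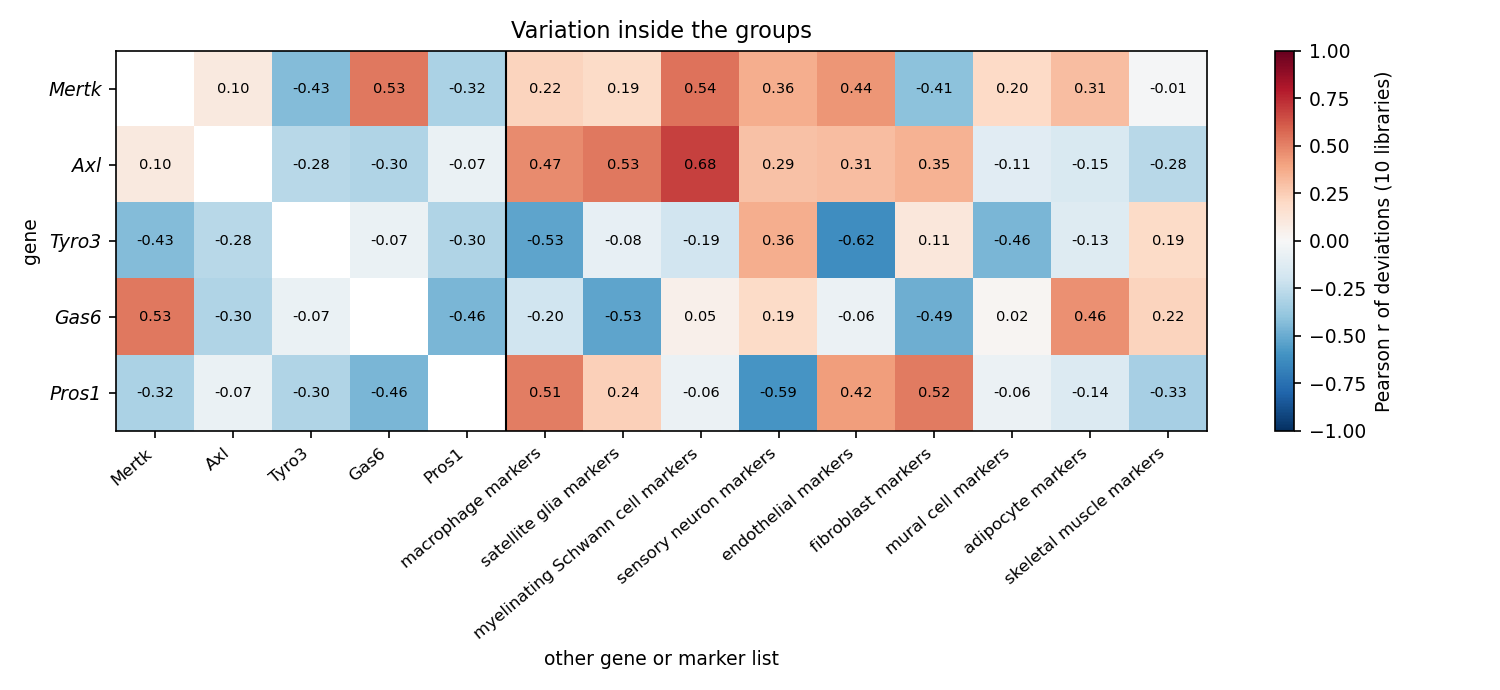
Pearson r over 10 libraries, after removal of the group means, of each member (rows) with the other members and with the mean log2 CPM of 9 marker lists (columns), on a colour scale from -1 to 1. The largest value is that of Axl with myelinating Schwann cell markers, at 0.68.

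The genes most like each member in this variation were searched among 12164 genes with a mean of at least 2 CPM and no predicted or clone name. They are given as a description of these 10 libraries. The highest r among 12164 genes over 10 libraries is large even for unrelated genes, so no link is read from them. For Mertk they were Them4 (Pearson r = 0.96), Fas (0.96), the death receptor, and Ccdc181 (0.93). For Gas6 they were Atp6v1h (0.98), a subunit of the proton pump of lysosomes, Atxn10 (0.96) and Sdr39u1 (0.95). For Axl they were Amacr (0.97), Tmem161a (0.97) and Sphk1 (0.95), a kinase that makes sphingosine 1-phosphate. For Tyro3 they were Ctnnb1 (0.94), which codes for beta-catenin, Mpnd (0.93) and Ndufaf6 (0.92). For Pros1 they were Mms19 (0.92), Eya2 (0.90) and Gja1 (0.90), a gap junction protein. Gja1 is 1 of 10 satellite glia markers, and with the mean of that list Pros1 had r = 0.24 (exact permutation p = 0.609). Between the groups, the genes most like Mertk had log2 fold changes of both signs, at -0.17 ± 0.07 for Them4, 0.62 ± 0.21 for Fas and -0.15 ± 0.07 for Ccdc181 (edgeR adjusted p = 0.209, 0.152 and 0.33). Atp6v1h had one of -0.08 ± 0.05 (adjusted p = 0.431) beside Gas6, and Eya2 passed (0.87 ± 0.18, adjusted p = 0.0225) where the other 14 did not.

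The partners of the TAM system were taken from lists of other genes, grouped by role, and tested in the same fit over all genes. Among 22 tested receptors and bridging molecules for dying cells other than the TAM members, 1 rose and 0 fell, at a median log2 fold change of 0.16 beside 0.01 for all genes tested. The riser was Mfge8, a secreted bridge that, like Gas6, joins exposed phosphatidylserine to a receptor, there an integrin. Mfge8 stood at 51.1 ± 5.07 CPM after oxaliplatin and 38.6 ± 5.75 CPM after vehicle (SD, n = 5 each; log2 fold change 0.40 ± 0.10 SE, edgeR adjusted p = 0.0438), with no overlap between the groups. Its call was lost when oxaliplatin replicate 1, 4 or 5, or vehicle replicate 1, 2 or 4, was dropped (adjusted p 0.0792 to 0.139) and with the size factors of DESeq2 (0.0502), and over all alternatives its adjusted p ranged over 0.0112 to 0.139. The integrin subunits of its receptors stood at 0.16 ± 0.10 for Itgav, 0.20 ± 0.12 for Itgb5 and -0.67 ± 0.22 for Itgb3 (edgeR adjusted p = 0.462, 0.462 and 0.155). Pear1, an engulfment receptor of the family of Megf10, was at 0.44 ± 0.11 (edgeR adjusted p = 0.0512) and the scavenger receptor Lrp1 at 0.20 ± 0.06 (adjusted p = 0.129), both without overlap between the groups. These genes other than Mfge8 were singled out after their values were seen. Timd4 and Havcr1, phosphatidylserine receptors, had at most 14 and 2 reads in any library and were not tested.

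Of 15 adaptors that carry the engulfment signal to the cytoskeleton, 0 passed the edgeR test in either direction and 0 passed in DESeq2, with 1 higher and 4 lower at an unadjusted p under 0.05. Their median log2 fold change was -0.01. Those of smallest p were the adaptor Crk (-0.18 ± 0.07, edgeR adjusted p = 0.2) and the GTPase Rhog (-0.25 ± 0.09, adjusted p = 0.176). Elmo1, which works with Dock1 to switch on Rac1, was at 102.4 CPM after oxaliplatin and 102.5 CPM after vehicle.

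Among 11 tested genes grouped under phosphatidylserine exposure, 1 fell and 0 rose, at a median of -0.09. It was Plscr3, a phospholipid scramblase of mitochondria, at 130 ± 9.78 CPM after oxaliplatin and 155 ± 9.31 CPM after vehicle (SD, n = 5 each; -0.25 ± 0.06 SE, edgeR adjusted p = 0.0493). It kept this call in 1 of 10 fits with a library left out, the one without oxaliplatin replicate 2, and its adjusted p was 0.0702 to 0.149 in the others. The scramblases of the cell surface that act in dying and activated cells stood at -0.29 ± 0.17 for Xkr8 (edgeR adjusted p = 0.442) and 0.19 ± 0.08 for Ano6 (adjusted p = 0.287).

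Of 17 tested signalling partners and sheddases, 0 passed the edgeR test, while DESeq2 called 1 higher and 1 lower, the same numbers as at an unadjusted p under 0.05 in edgeR. Pik3r1, a regulatory subunit of the kinase PI3K, was at 0.25 ± 0.07 (edgeR adjusted p = 0.0662, and 0.0176 to 0.247 over the alternatives), with no overlap between the groups. The adaptor Shc1 was at -0.45 ± 0.14 (edgeR adjusted p = 0.132), and at -0.56 without vehicle replicate 3 (adjusted p = 0.00719). Adam17, the protease that sheds Mertk, was at -0.07 ± 0.12, Adam10, which sheds Axl, at -0.01 ± 0.08, and Ifnar1, the interferon receptor chain with which TAM receptors pair, at 0.11 ± 0.08 (edgeR adjusted p = 0.831, 0.955 and 0.582).

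The ligands need vitamin K-dependent carboxylation of their Gla domains. Of 17 tested genes of the vitamin K cycle and of other Gla proteins, 1 rose and 0 fell, at a median log2 fold change of 0.05. Prrg3, a transmembrane Gla protein, stood at 24.3 ± 2.52 CPM after oxaliplatin and 16.5 ± 1.595 CPM after vehicle (SD, n = 5 each; 0.56 ± 0.10 SE, edgeR adjusted p = 0.00912), and kept its call in every alternative (adjusted p 1.22e-05 to 0.0373). The carboxylase Ggcx was at -0.12 ± 0.11 and the vitamin K reductase Vkorc1 at -0.20 ± 0.10 (edgeR adjusted p = 0.644 and 0.347). Mgp, a Gla protein that holds back calcification, was at 1.0 ± 0.26 (edgeR adjusted p = 0.101) with no overlap between the groups.

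Other proposed TAM ligands, Tub and the galectin Lgals3, had 0 of 2 past the edgeR test, 0 in DESeq2 and 0 at an unadjusted p under 0.05. They stood at -0.33 ± 0.16 for Tub and -0.17 ± 0.29 for Lgals3 (edgeR adjusted p = 0.307 and 0.845). The direction of Lgals3 turned without vehicle replicate 5, to 0.21 (edgeR adjusted p = 0.305). Of 14 transcription factors that act on Mertk in macrophages and targets of the nuclear receptors among them, 0 passed the edgeR test and 0 passed in DESeq2, with 1 higher and 0 lower at an unadjusted p under 0.05. Their median was 0.00. Rxra was at 0.28 ± 0.12 and Ppard at 0.36 ± 0.20 (edgeR adjusted p = 0.256 and 0.393). The LXR target genes Abca1 and Abcg1 were at -0.03 ± 0.10 and -0.10 ± 0.06 (edgeR adjusted p = 0.924 and 0.459).

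**Figure D5:**
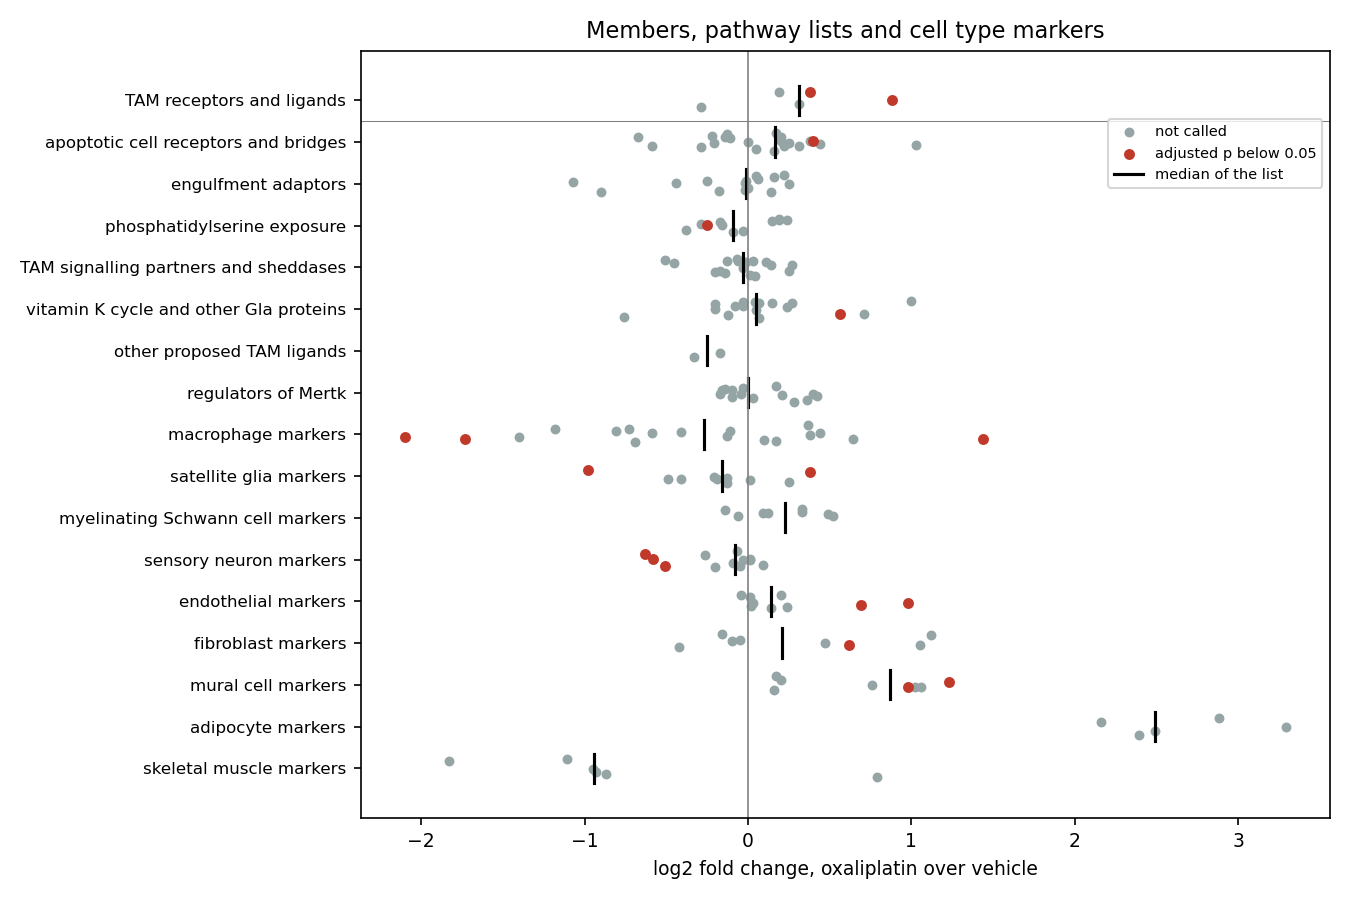
Log2 fold change of oxaliplatin over vehicle (horizontal axis) of the 5 members, of 7 lists of TAM partners and of 9 marker lists, 1 point per tested gene, with genes past an adjusted p of 0.05 in red and a bar at the median of each list. Mertk, at 0.88, lies above every tested gene of the lists of engulfment adaptors, phosphatidylserine exposure, signalling partners and regulators. It lies below Cd36 (1.03) of the receptors and bridges, Mgp (1.0) of the Gla proteins, and markers such as Folr2 (1.44) and Kcnj8 (1.23). Mertk was picked with this contrast known, so its place is a description.

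Markers of cells that the ganglion holds were counted in the same fit. Macrophages are the cells best known for Mertk, and their markers had 1 of 18 higher and 2 lower, at a median log2 fold change of -0.27. They were split in direction, with 7 of 18 above 0. Their summed level was 97.2 to 136 CPM after oxaliplatin and 190 to 289 CPM after vehicle, with Cd74, the chaperone of MHC class II, as the largest part at 35.1 ± 10.1 CPM after oxaliplatin and 150 ± 35.8 CPM after vehicle (SD, n = 5 each). Their mean log2 CPM, which weights genes equally, overlapped between the groups, at 1.62 to 1.94 after oxaliplatin and 1.62 to 2.51 after vehicle. Cd74 fell (-2.10 ± 0.24, edgeR adjusted p = 0.00633), as did the fractalkine receptor Cx3cr1 (-1.73 ± 0.32, adjusted p = 0.0145). Folr2, a folate receptor of tissue-resident macrophages, rose (1.44 ± 0.29, edgeR adjusted p = 0.0196). Its level was low, at 1.28 CPM after oxaliplatin and 0.470 CPM after vehicle, with at most 98 reads in any library. The receptor Csf1r, on which macrophages depend, was at -0.41 ± 0.13 and C1qb at -0.11 ± 0.19 (edgeR adjusted p = 0.124 and 0.841). On the other side, Lyve1 was at 0.64 ± 0.16, Cd68 at 0.44 ± 0.29 and Mrc1 at 0.37 ± 0.19 (edgeR adjusted p = 0.0526, 0.489 and 0.346). The part of these cells in the Mertk difference was not tested.

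Satellite glia, which wrap the neurons, had 1 of 10 markers higher and 1 lower, at a median of -0.16. Glul, glutamine synthetase, rose (0.38 ± 0.08, edgeR adjusted p = 0.0223) and Fabp7, a fatty acid binding protein of these cells, fell (-0.98 ± 0.18, adjusted p = 0.0298). Of 12 sensory neuron markers 0 were higher and 3 lower, all neurofilaments, among them Nefl (-0.51 ± 0.07, edgeR adjusted p = 0.00215) and Nefm (-0.58 ± 0.09, adjusted p = 0.00557). Their mean log2 CPM was 9.75 to 9.89 after oxaliplatin and 9.90 to 10.03 after vehicle, beside the lower mean of Tyro3, and its part in that was not tested. Markers of myelinating Schwann cells had 0 of 8 past the edgeR test, 1 higher in DESeq2 and 3 higher at an unadjusted p under 0.05, at a median of 0.22.

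Cells of vessels and connective tissue are known for Axl and Gas6. Endothelial markers had 2 of 9 higher (Pecam1 at 0.98 ± 0.18 and Cdh5 at 0.69 ± 0.17, edgeR adjusted p = 0.0164 and 0.048), at a median of 0.14. Mural cell markers had 2 of 8 higher (Kcnj8 at 1.23 ± 0.21 and Abcc9 at 0.98 ± 0.21, edgeR adjusted p = 0.0101 and 0.0248), at a median of 0.87. Their summed level was 195 to 283 CPM after oxaliplatin and 160 to 186 CPM after vehicle, without overlap. Fibroblast markers had 1 of 8 higher (Pdgfra at 0.62 ± 0.14, edgeR adjusted p = 0.0266), at a median of 0.21. The fibroblast list was split in direction, with 4 of 8 above 0, and Col1a1, Col1a2, Col3a1 and Lum below it. The part of these cells in the levels of Axl, Gas6 and Pros1 was not tested. Among the 12 called markers tried with each library left out, Cd74, Nefl, Nefm and Kcnj8 passed in all 10 fits. Fabp7 lost its call when oxaliplatin replicate 1, 3 or 4, or any vehicle replicate but 2, was dropped, and with no filter on low counts (edgeR adjusted p = 0.0539). Cdh5 and Pdgfra lost theirs when any oxaliplatin replicate but 2, or vehicle replicate 1, 3 or 4, was dropped. Folr2 needed oxaliplatin replicates 1 and 4 and vehicle replicates 1 and 4, Glul needed oxaliplatin replicates 4 and 5 and the same vehicle pair, and Abcc9 needed oxaliplatin replicates 1, 3 and 4 and vehicle replicate 4. Cx3cr1 needed oxaliplatin replicates 4 and 5, and Pecam1 needed oxaliplatin replicate 4. The edgeR adjusted p in the fits that lost a call was 0.0503 to 0.147.

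Tissue beside the ganglion was uneven between libraries. Adipocyte markers summed to 16.6 to 688 CPM after oxaliplatin, with 688 in replicate 1, and to 8.27 to 34.4 CPM after vehicle, and 0 of 5 passed the edgeR test (1 higher in DESeq2, 2 higher at an unadjusted p under 0.05), at a median of 2.49. Cfd and Cidec were at 3.29 ± 1.26 and 2.88 ± 1.19 with all libraries (edgeR adjusted p = 0.247 and 0.285), and at 0.91 and 0.81 without oxaliplatin replicate 1 (adjusted p = 0.569 and 0.642). Skeletal muscle markers summed to 732 CPM in oxaliplatin replicate 1 and to 8.10, 10.8, 22.1 and 14.55 CPM in replicates 2 to 5. After vehicle they summed to 95 to 485 CPM, so oxaliplatin replicates 2 to 5 lay below every vehicle library. The cause of this was not tested. Of these markers 0 of 6 passed the edgeR test, with 0 in DESeq2 and 0 at an unadjusted p under 0.05, at a median of -0.94. Without oxaliplatin replicate 1, Myh4 and Tnni2 were lower, at -5.49 and -4.42 (edgeR adjusted p = 0.0385 and 0.0496). Mertk was at 0.85 without that library. Without it and vehicle replicate 5 together, Folr2, Fabp7, Pdgfra and Abcc9 lost their calls (edgeR adjusted p = 0.066, 0.118, 0.0864 and 0.0789), as did Mfge8 and Plscr3 (0.0646 and 0.184).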

How the data were processed

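The authors deposited raw read counts per Ensembl gene, whole numbers with 1 column per library. The tools listed in the submitters' processing notes are DESeq2, Partek and STAR 2.5.1a, without their roles. No source used here gives the genome build, annotation, counting step or strand. The table held 40757 rows, and 276 rows that repeated an ID with identical counts were dropped. Library depth was 52963470 to 60984426 counts, and libraries of the same group all differed by more than sampling noise (chi-square over its degrees of freedom, 12.9 to 54.6).

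Genes kept by filterByExpr (18401) were fitted with edgeR 4.0.16 under R 4.3.3: TMM factors, robust quasi-likelihood fits with no covariate, and Benjamini-Hochberg adjustment over all of them at 0.05. SE is the log2 fold change over the root of F. CPM was taken over TMM-scaled sizes, and its log2 with 2 as prior count. Exon lengths are the union of exons in GENCODE M21. The gene test and the permutation test were tested on simulated data. Members and lists were chosen with earlier results of these data known. Named by rule were the members, from each partner list the called genes of smallest p (up to 4 per direction, 2 for marker lists) or else the 2 of smallest p, and per member the 3 most alike genes; others were named after their values were seen. Alternatives were DESeq2 1.42.0, its size factors, no composition factor, no filter or 1 CPM in 5 libraries, the replicate number as a block, and leaving out each library, or oxaliplatin replicate 1 and vehicle replicate 5 together.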

Additional observations from a re-analysis of the deposited data

Results flagged for a closer look

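A sample is listed here when its gap to the nearest library of its group exceeds Dixon's 95% critical value for 5 samples, 0.71 of the group's range. Of 86 groups of 5 libraries checked 12 were so marked, where chance gives about 1 in 20.

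Among the members, vehicle replicate 1 had 15.9 CPM of Tyro3, against 10.6 to 12.2 CPM in the other vehicle libraries. Vehicle replicate 3 had 44.2 CPM of Gas6, against 36.4 to 38.5 CPM in the others. No oxaliplatin library stood apart for any member.

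Among the partner genes, oxaliplatin replicate 2 had 10.6 CPM of Rxra, against 14.5 to 15.9 CPM in the rest of its group. Vehicle replicate 5 had 172 CPM of Plscr3, against 148 to 152 CPM in the rest of its group, and 88.0 CPM of Lgals3, against 32.3 to 42.1 CPM. Vehicle replicate 1 had 13.7 CPM of Prrg3, against 16.6 to 17.7 CPM in the rest of its group.

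Oxaliplatin replicate 1 stood apart from its group in tissue from beside the ganglion. It had 457 CPM of Cfd, 54.6 CPM of Cidec, 45.3 CPM of Myh4 and 34.1 CPM of Tnni2, and a mean of 6.22 log2 CPM over the skeletal muscle markers, where the other oxaliplatin libraries had at most 29.3, 5.74, 1.02 and 1.26 CPM and 1.23 log2 CPM. The sensory neuron markers averaged 9.89 log2 CPM in oxaliplatin replicate 2 and 9.75 to 9.77 in the other oxaliplatin libraries.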

How the results depend on the processing

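No member changed direction in any of 17 alternative fits. Mertk was called in 18 of 18 fits and Gas6 in 17 of 18, and Axl, Tyro3 and Pros1 in 0 of 18. The members called higher came to 1 without oxaliplatin replicate 1 and vehicle replicate 5 together, where Gas6 stood at 0.34. When 1 library was left out, the members called stayed at 2 higher and 0 lower. The members were picked with this contrast known, so nothing is read from how often they were called. All genes called ranged over 79 to 343 higher and 34 to 251 lower in these fits. Receptors and bridges ranged over 0 to 2 higher, phosphatidylserine exposure over 0 to 1 lower and signalling partners over 0 to 1 lower. Oxaliplatin replicate 1 and vehicle replicate 5 were chosen as a pair with earlier results of these data known. All genes called came to 142 higher and 76 lower without both libraries, against 234 and 142 with all libraries, and to 514 and 408 in DESeq2.

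Receptors and bridges called higher were 0 with the size factors of DESeq2 and without both libraries, and 2 with no composition factor, with no filter, with the stricter filter, with the block and in DESeq2, which also called 1 lower. Phosphatidylserine exposure had 0 called lower with the size factors of DESeq2, with no composition factor and without both libraries. Signalling partners had 1 called higher with no composition factor, with the block and in DESeq2, which also called 1 lower. Gla proteins had 2 called higher with the block and in DESeq2. Plscr3 and Cdh5 lost their calls with the size factors of DESeq2 (edgeR adjusted p = 0.0509 and 0.0519), and Plscr3 also with no composition factor (0.0766). The causes were not tested.

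Replicate numbers are shared between the groups, but same-numbered libraries deviated together unevenly (correlations over 13139 genes 0.152, -0.0923, 0.471, -0.0623 and 0.359), so the numbers were not taken as pairs. With the replicate number as a block, 382 genes were higher and 278 lower. Mertk then stood at 0.90. With the block Fabp7 was at -1.01 and not called (edgeR adjusted p = 0.141), and Pik3r1 and Ncmap were called higher (adjusted p = 0.0176 and 0.0168). The members rested on 438 reads or more per library, and partner genes under the filter on low counts were not tested.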
